A study of Homo sapiens with 6 samples.

Results

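The transcripts described here are those of 41 cytosolic translation factors, chosen by gene symbol: 9 start-site and ternary complex factors, 13 subunits of eIF3, 10 genes of the eIF4 group, 7 of the eEF elongation group, and EIF5A with ETF1. Of these 41 genes, 39 had a probe named in the array annotation, among 20046 genes so named, and all 39 passed the filter on dim probes. EIF4G3 and EEF1E1 were not analysed here. The 39 genes had 70 probes, of which 63 passed the filter.

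HCT116 is an established human colorectal carcinoma line, and all 6 arrays came from a p53-null derivative of it. The cells were harvested 48 h after exposure to TIC10 at 10 µM or to the solvent, DMSO, at 0.05%, with 3 arrays for each treatment. TIC10 is the anticancer compound ONC201. The labels do not say that the replicates came from separate cultures, so each p-value rests on array-to-array spread that may be purely technical. The absence of p53 was not checked here. Of 6 epithelial markers, EPCAM, KRT8, KRT19, CDH1 and CLDN7 lay above percentile 93.8 of every array, whereas KRT18 lay at percentile 42.7 on DMSO replicate 3. Of 6 markers of fibroblasts, leukocytes and endothelium, 4 passed the filter, at levels of 5.96 to 6.73 on the log2 scale. The summed intensity of an array ran from 1.16e+07 to 1.91e+07, with DMSO replicate 3 the highest. The number of arrays limits the precision.

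Protein synthesis starts when eIF2, carrying GTP and the initiator tRNA, joins the small ribosomal subunit together with eIF1, eIF1A and eIF3, and the eIF4 factors bring this complex to the mRNA cap. Elongation factors then deliver each aminoacyl-tRNA and move the ribosome along the message. Many transcripts of the translation machinery begin with a run of pyrimidines that starts with C, the terminal oligopyrimidine or TOP tract, through which mTORC1 signalling controls their translation. Phosphorylation of eIF2 during the integrated stress response, which TIC10 is known to set off, lowers general initiation.

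After TIC10, transcripts of several start-site factors and eIF3 subunits and of EEF1D and EEF2 were higher, whereas EIF4A1, EIF4G2, EIF4EBP2, EEF2K and EIF5A were lower. Of the 39 genes tested, 11 rose and 5 fell (limma, Benjamini-Hochberg adjusted p under 0.05). These are 28.2% and 12.8% of the members, beside 10.4% and 13.4% of the 14534 genes tested, so that the share lower was near the background. The largest rise was 1.92-fold, of EIF2A, and the largest fall 1.92-fold, of EIF4EBP2. The median log2 change was 0.19 over the members and -0.01 over all genes. The 3 TIC10 arrays lay above all DMSO arrays for 14 members and below them for 7, where the background was 18.5% above and 23.1% below. Both counts depended on the scaling of the arrays. With arrays scaled to one median in place of quantile normalization, the median of all genes moved to -0.15, and EIF1 alone was called higher, beside 2.17% of all genes. EIF4A1, EIF4EBP2 and EIF4G1 were then called lower, beside 13.7%. Of all genes called, 43.8% were higher with quantile normalization, 13.6% with one median and 54.9% in the series matrix. In the authors' processed values of the series matrix, 2 members were higher, EIF1 and EIF2S2, beside 3.68% of all genes. No member was lower there (0 of 39 by limma, 2 at an unadjusted p under 0.05), beside 3.02%.

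**Figure D1:**
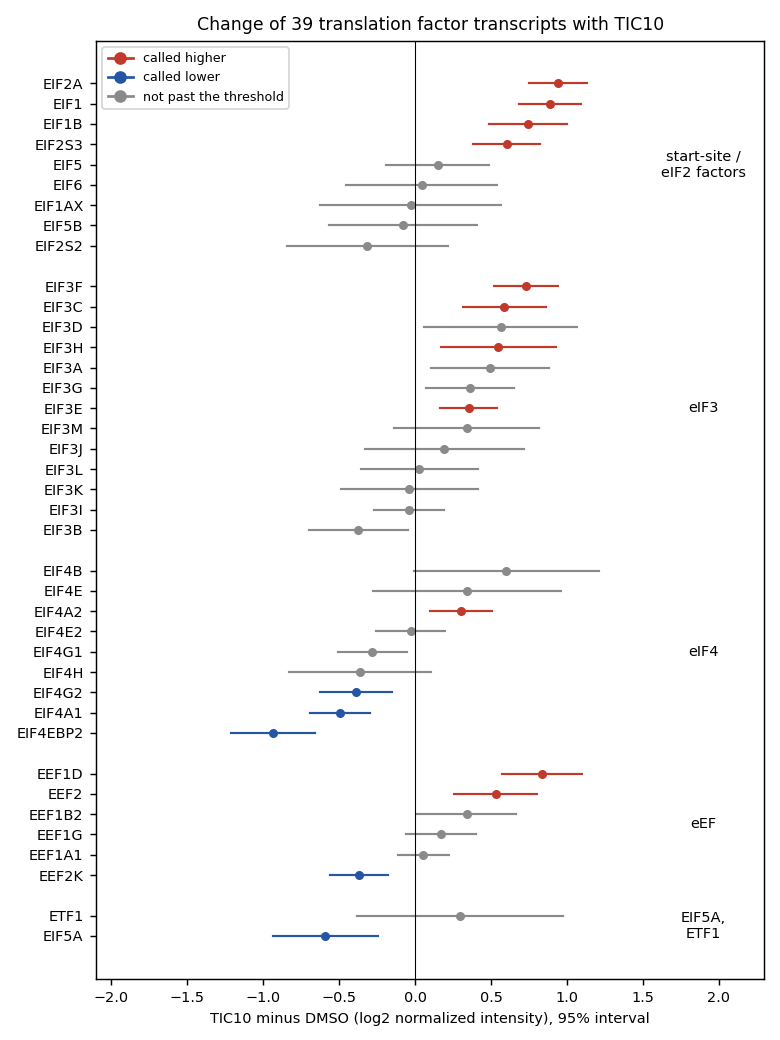
Change of each tested translation factor after TIC10, as the difference of group means in log2 normalized intensity (x axis), with its 95% interval from the limma fit, 3 arrays against 3. Genes are ordered by change within each group. Red and blue mark the 11 members called higher and the 5 called lower, and grey the 23 that did not pass. Of the 9 genes of the eIF4 group 6 lie below 0, and of the 13 eIF3 subunits 10 lie above 0.

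DMSO replicate 3 stood apart from the other DMSO arrays, and this touched the members more than most genes. It gave the highest of the 3 DMSO values for 28 of the 39 members, 71.8%, beside 43.9% of all genes. Its median absolute deviation from the mean of DMSO replicates 1 and 2 was 0.27 over the members and 0.18 over all genes. Without it, 20 members were higher and 6 lower, where 16.4% and 19.2% of all genes were called. The 9 members added to the higher calls were EIF3A, EIF3D, EIF3G, EIF3J, EIF3M, EIF4B, EEF1B2, EEF1G and ETF1, and EIF4G1 was added to the lower ones. When DMSO replicate 2 was left out, 7 members rose and 3 fell. Leaving out DMSO replicate 1, TIC10 replicate 1 or TIC10 replicate 2 gave 8 and 3, and leaving out TIC10 replicate 3 gave 8 and 2. With any one array but DMSO replicate 3 removed, fewer of all genes tested were called as well. Genes higher dropped from 1513 to between 891 and 1214, and genes lower from 1944 to between 1171 and 1619.

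The RefSeq starts of the called members are shown for the first bases of the transcript. The choice of translation factors is not independent of these bases, since many transcripts of the translation machinery begin with a TOP tract. RefSeq (GRCh38.p14) listed starts for 34 of the 41 members. EIF2S2, EIF3A, EIF3E, EIF3G, EIF3H, EIF3L and EEF1D had no entry. Each line gives 15 bases before the start and 15 bases from it. Capitals mark the unbroken run of C and T that begins at the start base, where that base is C. For a gene with several starts, the one with the longest run is shown. The called members that rose were these.
EIF2A (chr3:150546772-150546801, plus strand): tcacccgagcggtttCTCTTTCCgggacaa
EIF2S3 (chrX:24054941-24054970, plus strand): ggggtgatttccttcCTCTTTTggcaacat
EIF3F (chr11:7987322-7987351, plus strand): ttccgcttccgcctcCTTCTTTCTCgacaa
EIF4A2 (chr3:186783562-186783591, plus strand): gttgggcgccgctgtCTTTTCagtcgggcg
EEF2 (chr19:3985449-3985478, minus strand): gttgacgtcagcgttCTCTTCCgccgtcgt
EIF1 (chr17:41688870-41688899, plus strand): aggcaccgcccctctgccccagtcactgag
EIF1B (chr3:40309692-40309721, plus strand): tcggccattttgtgcgagaagccgcagcgc
EIF3C (chr16:28688543-28688572, plus strand): ctctgtcccacccccgtggcaggcagccct
The called members that fell were these.
EIF4A1 (chr17:7572810-7572839, plus strand): aggcgggcactccgcCCTagtttctaagga
EIF4EBP2 (chr10:70404130-70404159, plus strand): ctcccgccttcgcccgcttccggtcgtcgt
EIF4G2 (chr11:10807982-10808011, minus strand): gaggttgtcggaagcacttccctaacttgc
EEF2K (chr16:22206263-22206292, plus strand): tgcccgcccgcttctgctcaacctagacca
EIF5A (chr17:7306984-7307013, plus strand): atgggtgggaacccgaccacactagcgcgc

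A run of at least 5 such bases stood at a start of 5 of the 8 members that rose, and at 0 of the 5 that fell. It stood at 6 of the 19 that did not pass, namely EIF3D, EIF3K, EIF3M, EIF4B, EEF1A1 and EEF1B2. The median log2 change was 0.53 over the 11 tested members with such a start and -0.03 over the 21 without. These calls and medians are those with quantile normalization. With arrays scaled to one median EIF1 alone was called higher, and in the series matrix EIF1 and EIF2S2. EIF1 has no such run and EIF2S2 no listed start, so no member with such a run was called under either setting. This feature was chosen after the values were seen. Of all 35116 listed promoters 4.07% held it. Members were counted by gene, over all listed starts of a gene. Counted so, 5.14% of 27305 genes held it, and 6.91% of the 11346 genes tested that had a listed start. Over all 784 tested genes with such a start, 15.4% rose and 12.1% fell, and over the 10562 without, 10.1% rose and 14.4% fell. With the members left out, 116 of 773 genes with such a start rose and 95 fell, with a median log2 change of 0.04. A listed start is an annotation, and the start used in these cells was not measured.

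**Figure D2:**
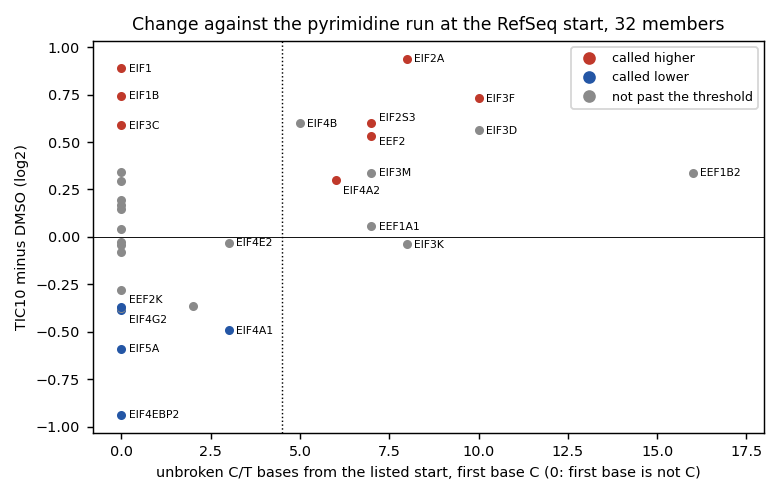
Log2 change after TIC10 (y axis) against the number of unbroken C or T bases from the RefSeq start (x axis, 0 where the first base is not C) for the tested members with a listed start. Red, blue and grey mark members called higher, called lower and not past the threshold, and the dotted line separates runs under 5 bases from longer ones. All 5 members called lower lie to the left of the line, as do EIF1, EIF1B and EIF3C among those called higher.

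Promoters are shown for the called members with the largest rise and fall in the eIF3, eIF4 and elongation groups, with EEF2 in the place of EEF1D, and no eIF3 subunit fell. Each runs from 250 bases before the start to 15 bases from it. Capitals mark matches, on either strand, to the E-box CACGTG or the ETS core TTCCGG.
EIF3F (chr11:7987087-7987351, plus strand): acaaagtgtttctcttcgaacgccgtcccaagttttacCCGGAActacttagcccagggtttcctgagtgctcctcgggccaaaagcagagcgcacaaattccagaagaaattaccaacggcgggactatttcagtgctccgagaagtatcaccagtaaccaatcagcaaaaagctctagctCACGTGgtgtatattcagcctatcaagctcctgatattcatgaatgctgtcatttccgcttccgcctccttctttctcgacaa
EIF4A2 (chr3:186783327-186783591, plus strand): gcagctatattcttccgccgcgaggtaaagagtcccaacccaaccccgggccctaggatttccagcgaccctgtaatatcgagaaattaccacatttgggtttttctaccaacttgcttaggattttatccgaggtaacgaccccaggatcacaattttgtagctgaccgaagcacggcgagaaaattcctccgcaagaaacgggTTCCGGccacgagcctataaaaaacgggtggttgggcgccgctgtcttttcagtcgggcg
EIF4EBP2 (chr10:70403895-70404159, plus strand): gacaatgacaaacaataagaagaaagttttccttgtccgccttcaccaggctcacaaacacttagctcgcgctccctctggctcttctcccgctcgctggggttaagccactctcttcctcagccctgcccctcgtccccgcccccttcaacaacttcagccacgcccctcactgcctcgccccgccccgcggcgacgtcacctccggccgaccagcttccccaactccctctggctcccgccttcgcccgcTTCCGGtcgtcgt
EEF2 (chr19:3985449-3985713, minus strand): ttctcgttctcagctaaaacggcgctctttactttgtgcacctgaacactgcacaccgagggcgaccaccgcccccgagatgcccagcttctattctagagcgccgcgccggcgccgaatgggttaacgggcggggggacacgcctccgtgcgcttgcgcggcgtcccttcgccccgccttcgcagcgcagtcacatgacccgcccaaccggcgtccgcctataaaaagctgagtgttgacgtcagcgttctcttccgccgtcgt
EEF2K (chr16:22206028-22206292, plus strand): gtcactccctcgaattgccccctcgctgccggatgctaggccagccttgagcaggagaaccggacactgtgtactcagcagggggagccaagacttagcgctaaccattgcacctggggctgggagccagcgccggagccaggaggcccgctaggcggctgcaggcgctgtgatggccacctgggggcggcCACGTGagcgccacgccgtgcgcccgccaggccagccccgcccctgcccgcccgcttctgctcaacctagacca
The E-box was found at 68 bases before the start of EIF3F, which rose, and at 59 bases before that of EEF2K, which fell. Over 250 bases before to 50 after the start, the E-box stood in 8 of the 34 members (2 of 8 that rose, 1 of 5 that fell), in 7.26% of all promoters and, counted by gene as for the members, in 8.77% of all 27305 genes. The ETS core stood in 18 of the 34 members (4 of 8 that rose, 2 of 5 that fell), in 17.2% of all promoters and in 20.1% of all genes. The letters TGATGNAA, a CARE element of the kind bound by ATF4, were in the window of no member and in 3.62% of all promoters (4.46% of all genes). A match is no evidence of binding, and these letters may lie outside the window.

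Among the start-site and ternary complex factors, EIF1, EIF1B, EIF2A and EIF2S3 rose and none fell (0 of 9 by limma, also 0 at an unadjusted p under 0.05), with a median log2 change of 0.15. The share that rose was 44.4%, and over all genes 10.4% rose and 13.4% fell. The median was 0.29 without DMSO replicate 1 and turned to -0.32 with arrays scaled to one median. EIF1 keeps the scanning ribosome from starting at wrong codons. Its probe read 11.83, 12.02 and 11.81 on DMSO replicates 1 to 3 and 12.74, 12.82 and 12.77 on TIC10 replicates 1 to 3 (log2 normalized intensity, the scale of all levels below). The groups did not overlap, and EIF1 rose 1.85-fold (log2 change 0.89 ± 0.09 SE, adjusted p = 0.000883). It passed under all 15 alternatives, and in the series matrix it was higher by 0.52 (adjusted p = 0.0104). EIF1B, a close relative of EIF1, read 10.36, 10.00 and 10.24 with DMSO and 10.91, 10.94 and 10.99 with TIC10. It rose by 0.74 ± 0.11 (adjusted p = 0.00377).

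EIF2A is a single protein that can bring initiator tRNA to the ribosome without eIF2, and is distinct from the alpha subunit of eIF2. Its values were 10.05, 10.05 and 10.19 with DMSO and 11.12, 11.03 and 10.97 with TIC10. All TIC10 arrays were above all DMSO arrays, by 0.94 ± 0.08 on average (adjusted p = 0.000655), whereas the series matrix gave 0.01 for the same probe (adjusted p = 0.979). EIF2S3, the GTP-binding gamma subunit of eIF2, read 10.55, 10.59 and 10.79 with DMSO and 11.32, 11.17 and 11.25 with TIC10, and rose by 0.60 ± 0.09 (adjusted p = 0.00505). EIF1B, EIF2A and EIF2S3 kept their calls without each array in turn, but not with arrays scaled to one median, where their adjusted p was 0.516, 0.225 and 0.733, nor in the series matrix.

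EIF2S2, the beta subunit of eIF2, read 6.83, 7.06 and 7.73 with DMSO and 6.96, 6.95 and 6.77 with TIC10. The groups overlapped and the difference of -0.31 ± 0.22 did not pass (adjusted p = 0.377). In the series matrix it had the opposite sign, 0.49, and passed (adjusted p = 0.0221), so the tables give this gene no common direction. The probe representing EIF1AX, which encodes the scanning factor eIF1A, differed by -0.03 ± 0.25, with the groups overlapping. Its second kept probe was lower by 1.04 ± 0.21 (adjusted p = 0.0154 in the fit of all 20120 kept probes with 1 gene symbol), so the probes of this gene disagree. EIF5, the GTPase-activating protein of eIF2, EIF5B, which joins the ribosomal subunits, and EIF6, which keeps free large subunits apart, differed by 0.15, -0.08 and 0.04, with adjusted p of 0.534 to 0.914.

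eIF3 is the largest initiation factor and holds the small subunit, the other factors and the mRNA together. Of its 13 subunits, 4 rose, EIF3C, EIF3E, EIF3F and EIF3H, and none fell (0 by limma, 1 at an unadjusted p under 0.05), with a median log2 change of 0.35 (0.044 with arrays scaled to one median). These 4 are 30.8% of the subunits, beside 10.4% of all genes higher and 13.4% lower. All 4 belong to the 8 subunits of the structural octamer (EIF3A, EIF3C, EIF3E, EIF3F, EIF3H, EIF3K, EIF3L and EIF3M), whose median was 0.42. The median of the other 5, EIF3B, EIF3D, EIF3G, EIF3I and EIF3J, was 0.19, and a difference between these subsets was not tested. In the series matrix the order was the other way, 0.15 for the octamer and 0.20 for the other 5, and no subunit passed. Without DMSO replicate 3, EIF3D, EIF3G and EIF3J from outside the octamer were called higher as well.

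EIF3F, whose product carries an MPN domain, read 11.13, 11.26 and 11.38 with DMSO and 11.94, 12.01 and 12.02 with TIC10. The groups were well apart, and the rise was 1.66-fold (log2 change 0.73 ± 0.09, adjusted p = 0.002). EIF3C, a scaffold subunit, read 7.23, 7.08 and 7.47 with DMSO and 7.79, 7.93 and 7.83 with TIC10, a rise of 0.59 ± 0.11 (adjusted p = 0.0119). A near-identical copy of this gene, EIF3CL, may share its probe. EIF3H, the other MPN subunit, read 11.03, 11.22 and 11.60 with DMSO and 11.93, 11.90 and 11.66 with TIC10. Its lowest TIC10 value was just above DMSO replicate 3, and the rise of 0.55 ± 0.16 passed narrowly (adjusted p = 0.0492). That call was lost without any one array but DMSO replicate 3, with adjusted p up to 0.161. The calls of EIF3F, EIF3C and EIF3H were also lost with arrays scaled to one median (adjusted p = 0.401, 0.534 and 0.768). In the series matrix they gave 0.27, 0.29 and 0.18 and did not pass (adjusted p of 0.136 to 0.636).

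EIF3E, also known as INT6, read 12.93, 12.98 and 12.98 with DMSO and 13.36, 13.21 and 13.38 with TIC10. It rose by 0.35 ± 0.08 (adjusted p = 0.0186), lost its call without 4 of the 6 arrays in turn (adjusted p up to 0.0782), and had the opposite sign in the series matrix, -0.11 (adjusted p = 0.671). EIF3D, the subunit that can itself bind the cap, was also high on DMSO replicate 3: it read 10.69, 11.02 and 11.57 with DMSO and 11.72, 11.62 and 11.63 with TIC10. The difference of 0.56 ± 0.21 did not pass (adjusted p = 0.103), and without DMSO replicate 3 it was 0.80 (adjusted p = 0.000652). EIF3A, the largest subunit, and EIF3G likewise passed without it, with 0.49 ± 0.16 (adjusted p = 0.0728; 0.00255 without that array) and 0.36 ± 0.12 (adjusted p = 0.0766; 0.0117 without it).

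EIF3B, which carries a propeller domain and binds the small subunit, was the only eIF3 subunit with all TIC10 arrays below all DMSO arrays. It read 12.12, 12.10 and 12.48 with DMSO and 11.88, 12.01 and 11.69 with TIC10, and the difference of -0.37 ± 0.14 did not pass (adjusted p = 0.0962). Its 2 further kept probes gave -0.12 and -0.08. EIF3L read 12.99, 12.90 and 13.51 with DMSO and 13.08, 13.22 and 13.18 with TIC10, a difference of 0.03 ± 0.16 whose 95% interval ran from -0.36 to 0.42. Its second kept probe gave 0.47 ± 0.24 (adjusted p = 0.219 in the fit of all probes), outside that interval. The remaining subunits EIF3I, EIF3J, EIF3K and EIF3M lay between -0.04 and 0.34, with adjusted p of 0.285 to 0.919 and overlapping groups. The second kept probe of EIF3M gave 0.66 ± 0.23 (adjusted p = 0.0926 in the fit of all probes).

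**Figure D3:**
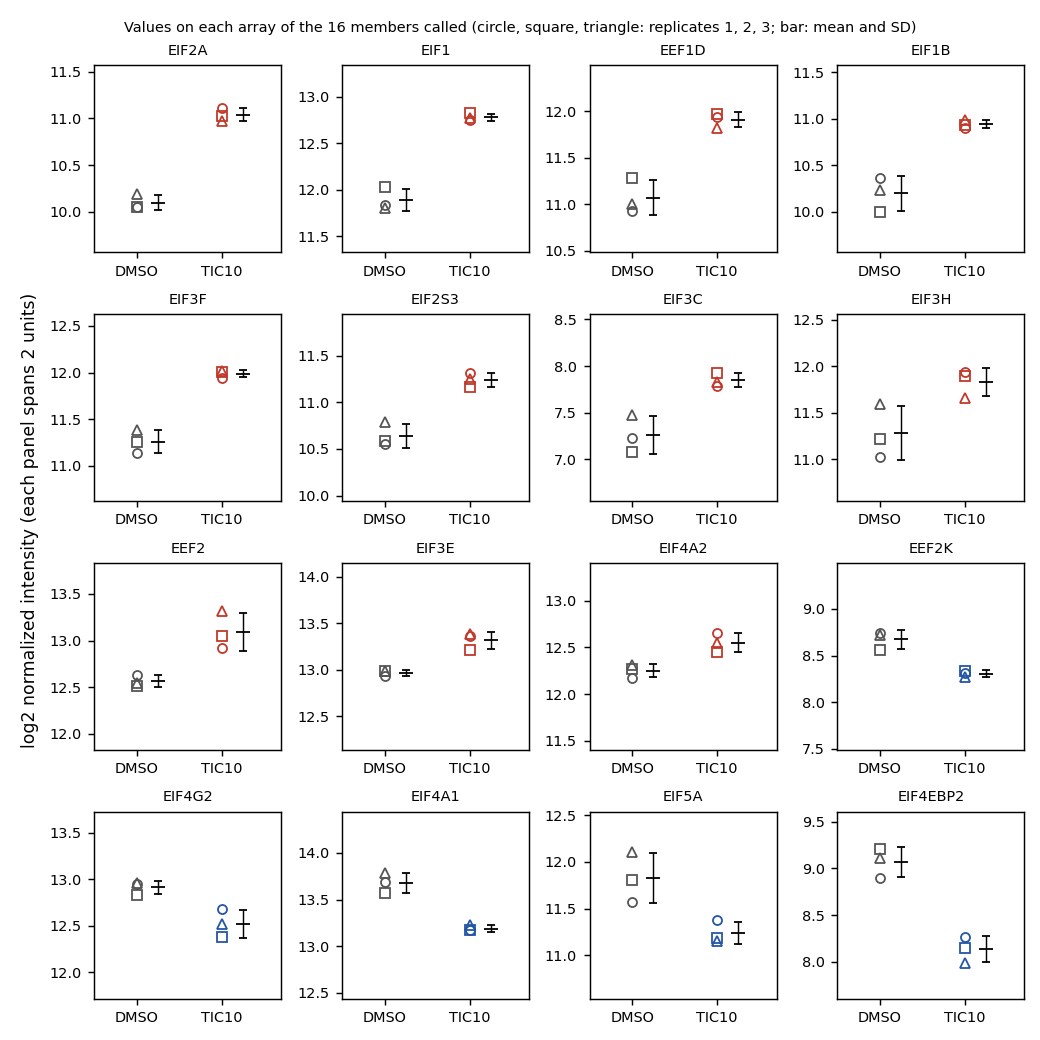
Values of the 16 called members on each array, in log2 normalized intensity (y axis, 2 units in every panel), for DMSO (grey) and TIC10 (red where called higher, blue where called lower). Circles, squares and triangles are replicates 1, 2 and 3, and the black bar beside them is the mean with its SD (n = 3). In every panel the TIC10 points lie all above or all below the DMSO points, with the smallest gap at EIF3H.

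In the eIF4 group 3 of 9 members were lower and 1 higher, with a median log2 change of -0.28 (-0.14 without DMSO replicate 3). These are 33.3% and 11.1%, beside 13.4% and 10.4% of all genes, so that the share higher was near the background. In the series matrix the median was -0.037, and no member of the group passed. EIF4A1, the helicase that unwinds the start of the mRNA, read 13.69, 13.57 and 13.79 with DMSO and 13.17, 13.17 and 13.23 with TIC10. It fell 1.41-fold (log2 change -0.49 ± 0.08, adjusted p = 0.00667), and its second kept probe gave -0.60 ± 0.15 (adjusted p = 0.0289 in the fit of all probes). Its paralogue EIF4A2 read 12.18, 12.27 and 12.31 with DMSO and 12.65, 12.45 and 12.55 with TIC10. It rose by 0.30 ± 0.08 (adjusted p = 0.0438), a call lost without any one array but DMSO replicate 3, with adjusted p up to 0.15.

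EIF4EBP2, a repressor that holds eIF4E until mTORC1 phosphorylates it, read 8.89, 9.21 and 9.11 with DMSO and 8.26, 8.15 and 7.98 with TIC10. The groups were far apart, and the fall was 1.92-fold (log2 change -0.94 ± 0.12, adjusted p = 0.00217). It passed under 14 of 15 alternatives, the exception being the series matrix, which gave -0.04 (adjusted p = 0.929). EIF4A1 likewise passed under 14 of 15, with -0.08 in the series matrix (adjusted p = 0.786). EIF4G2, also called DAP5, an eIF4G relative that does not bind eIF4E, read 12.95, 12.83 and 12.96 with DMSO and 12.68, 12.38 and 12.52 with TIC10. It fell by 0.39 on the log2 scale (adjusted p = 0.0313), and the call was lost when DMSO replicate 1 or 2, or TIC10 replicate 2 or 3, was left out (highest adjusted p = 0.0985). Its other kept probes gave -0.20 and -0.48 and did not pass (adjusted p = 0.135 and 0.231 in the fit of all probes). The series matrix gave -0.04 for EIF4G2 (adjusted p = 0.921).

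EIF4E, the cap-binding protein, read 8.19, 7.83 and 8.39 with DMSO and 8.18, 8.22 and 9.04 with TIC10. The groups overlapped, and the difference of 0.34 ± 0.26 did not pass (adjusted p = 0.412). Its other kept probe gave -0.22, and 3 more of its probes failed the filter. EIF4G1, the scaffold that joins eIF4E, eIF4A and eIF3, read 10.14, 10.09 and 10.00 with DMSO and 9.95, 9.75 and 9.69 with TIC10. All TIC10 arrays were below the DMSO arrays, yet the difference of -0.28 ± 0.09 did not pass (adjusted p = 0.0766; 0.036 without DMSO replicate 3, and 0.0462 with arrays scaled to one median). The second kept probe of EIF4G1 gave -0.11 ± 0.15 (adjusted p = 0.696 in the fit of all probes).

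EIF4B, which stimulates the helicase, read 11.09, 11.51 and 12.18 with DMSO and 12.17, 12.25 and 12.17 with TIC10. DMSO replicate 3 reached the TIC10 level, and the difference of 0.60 ± 0.26 (adjusted p = 0.144) became 0.89 without that array (adjusted p = 0.000683). EIF4H, a relative of EIF4B, differed by -0.37 ± 0.20 and EIF4E2, a cap-binding protein that represses translation, by -0.03 ± 0.09, with overlapping groups and adjusted p of 0.241 and 0.867.

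Each member was also set against its own mean over the 6 arrays. The median deviation of the eIF3 subunits was -0.32, -0.25 and 0.13 on DMSO replicates 1 to 3 and 0.11, 0.20 and 0.17 on TIC10 replicates 1 to 3. That of the eIF4 group was 0.04, 0.10 and 0.24 on the DMSO arrays and -0.04, -0.17 and -0.20 on the TIC10 arrays. The eIF4 values with TIC10 were all below those with DMSO, whereas for eIF3 DMSO replicate 3 lay among the TIC10 arrays. The elongation group gave -0.20, -0.17 and 0.06 with DMSO and 0.08, 0.09 and 0.12 with TIC10, so that its groups did not overlap. Over all genes tested the medians were 0.002, 0.004 and 0.019 with DMSO and -0.006, -0.007 and -0.014 with TIC10. There too all TIC10 values lay below all DMSO values, though their spread was much smaller. The difference between the median changes of eIF3 and eIF4 was 0.63, and it was 0.59 without DMSO replicate 3, 0.53 with arrays scaled to one median and 0.19 in the series matrix. These group medians are descriptions of members chosen with earlier results of these data known, and no test was made of them.

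**Figure D4:**
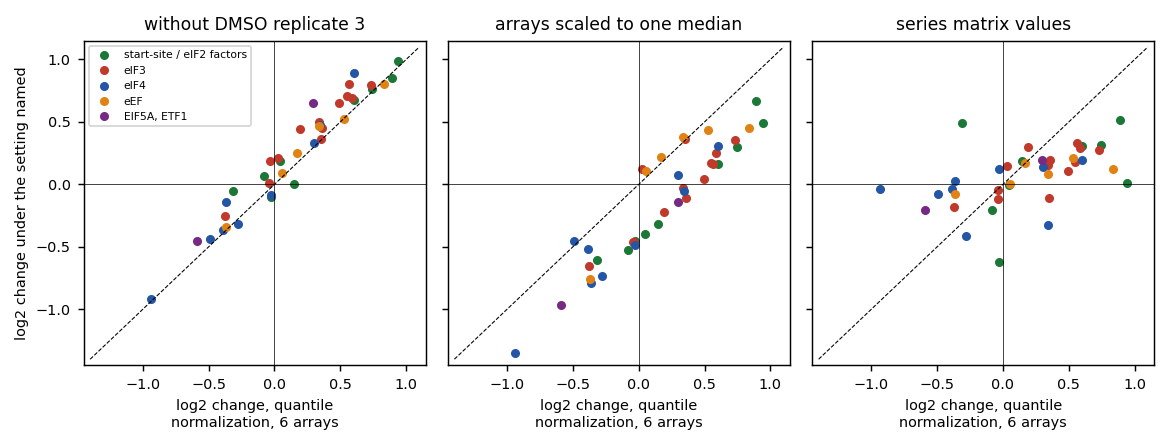
Log2 change of each tested member under 3 other settings (y axis) against its change with quantile normalization of all 6 arrays (x axis), coloured by group, with the dashed line marking equal values. Without DMSO replicate 3 most points lie near or above the line, and with arrays scaled to one median most lie below it. In the series matrix most changes are smaller in size, with EIF1 at 0.52 and EIF2A at 0.01. There 33 of the 39 members kept their sign, 84.6%, beside 64.2% of all genes.

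In the elongation group EEF1D and EEF2 rose and EEF2K fell, with a median log2 change of 0.25 over 6 genes. The shares higher and lower were 33.3% and 16.7%, beside 10.4% and 13.4% of all genes. EEF1D, a subunit of the exchange factor that recharges eEF1A with GTP, read 10.93, 11.28 and 11.00 with DMSO and 11.93, 11.97 and 11.81 with TIC10. It rose 1.78-fold (log2 change 0.84 ± 0.11, adjusted p = 0.00284), a second kept probe gave 0.95 ± 0.13 (adjusted p = 0.0033 in the fit of all probes), and the remaining one gave 0.16. EEF2, the translocase, read 12.63, 12.51 and 12.54 with DMSO and 12.92, 13.04 and 13.32 with TIC10. It rose by 0.53 ± 0.12 (adjusted p = 0.0178), and lost its call when replicate 2 of either treatment was left out (highest adjusted p = 0.0638).

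EEF2K, the kinase that phosphorylates and inhibits eEF2, fell while EEF2 rose. It read 8.74, 8.56 and 8.72 with DMSO and 8.31, 8.34 and 8.27 with TIC10, and fell by 0.37 on the log2 scale (adjusted p = 0.0182). The call was lost when replicate 1 of either treatment or TIC10 replicate 3 was left out (highest adjusted p = 0.0719). It was also lost with arrays scaled to one median (adjusted p = 0.0698) and in the series matrix (-0.08, adjusted p = 0.84). EEF1B2, another exchange subunit, read 12.90, 12.75 and 13.21 with DMSO and 13.40, 13.15 and 13.32 with TIC10. The groups overlapped, and the difference was 0.34 ± 0.14 (adjusted p = 0.124; 0.00736 without DMSO replicate 3). EEF1G, a further exchange subunit, differed by 0.17 ± 0.10 (adjusted p = 0.268; 0.0462 without that array).

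EEF1A1, which delivers aminoacyl-tRNA, read 13.96, 13.97 and 14.06 with DMSO and 14.03, 14.06 and 14.06 with TIC10. Its difference was 0.05 ± 0.07 (adjusted p = 0.649), with a 95% interval of -0.11 to 0.22. This probe was the brightest of the whole array on 3 of the 6 arrays, and its intensity ran from 16102.93 to 17316.4 over all 6. Quantile normalization gives the brightest probe of every array the same value, here 14.06 on DMSO replicate 3 and TIC10 replicates 2 and 3. The small difference and narrow interval therefore do not bound the change of this transcript. Whether such bright probes follow changes fully was not tested. Of its other kept probes, 1 gave 0.54 ± 0.22 (adjusted p = 0.14 in the fit of all probes), and the others gave -0.05 and -0.02.

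EIF5A, the hypusine-containing protein that helps ribosomes past difficult sequences and in termination, read 11.57, 11.81 and 12.10 with DMSO and 11.37, 11.18 and 11.15 with TIC10. It fell 1.51-fold (log2 change -0.59 ± 0.15, adjusted p = 0.0271), and the call was lost when any TIC10 array, or DMSO replicate 2, was left out (highest adjusted p = 0.1). EIF5A also did not pass with arrays scaled to one median (adjusted p = 0.0669) or in the series matrix (-0.21, adjusted p = 0.431). ETF1, which encodes the release factor eRF1, read 10.18, 10.40 and 11.35 with DMSO and 10.95, 10.94 and 10.93 with TIC10. Its TIC10 values lay within the range of the DMSO arrays, and the difference of 0.30 ± 0.28 (adjusted p = 0.531) was 0.65 without DMSO replicate 3 (adjusted p = 0.000823).

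Of 14 members with several kept probes, none had probes called in opposite directions, and 4 had probes of both signs, EEF1A1, EEF1B2, EIF4E and EIF5. Counted by probe, 11 of 63 kept member probes were higher and 7 lower, beside 9.51% and 12.0% of all 20120 kept probes with 1 gene symbol.

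A list of 8 members taken as TOP genes held EEF1A1, EEF1B2, EEF1D, EEF1G, EEF2, EIF3E, EIF3F and EIF3H. It was drawn up from general knowledge but with earlier results of these data known, so its counts are a description. Of these 8, 5 were higher and none lower (0 by limma, also 0 at an unadjusted p under 0.05), with a median log2 change of 0.44. Those 5 are 62.5% of the list, beside 10.4% of all genes higher and 13.4% lower. None of the 8 passed in the series matrix. At the RefSeq starts a run of at least 5 bases was listed for 4 of these 8, EEF1A1, EEF1B2, EEF2 and EIF3F, but not for EEF1G, and EEF1D, EIF3E and EIF3H had no entry. The list leaves out other members with such a run. Of those, EIF2A, EIF2S3 and EIF4A2 rose, and EIF3D, EIF3K, EIF3M and EIF4B did not pass. Of 16 other cap-binding, poly(A) and eIF4 control genes, 4 rose and 2 fell, with a median of 0.00. MKNK2, a kinase of eIF4E, rose by 1.06 ± 0.22 (adjusted p = 0.0156), and PABPC4, a poly(A)-binding protein, by 0.71 ± 0.13 (adjusted p = 0.00915). EIF4A3, an eIF4A relative of the exon junction complex, fell by 0.89 on the log2 scale (adjusted p = 0.000708), from 12.04, 11.97 and 12.16 to 11.16, 11.19 and 11.16. RPS6KB1, the S6 kinase of the mTORC1 pathway, fell by 0.60 (adjusted p = 0.00189). The other genes that rose were PABPC1 and EIF4EBP1, singled out after their values were seen. EIF4EBP1, the sister of EIF4EBP2, differed from it in direction, going from 6.82, 6.67 and 7.02 to 7.41, 7.50 and 7.39, and rose by 0.60 ± 0.10 (adjusted p = 0.00811). In the series matrix MKNK2 (0.68, adjusted p = 0.0045) and EIF4EBP1 (0.49, adjusted p = 0.0195) passed. PABPC4, PABPC1, EIF4A3 and RPS6KB1 kept their signs there but did not pass (adjusted p of 0.129 to 0.684).

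None of 13 other genes of eIF2, its exchange factor eIF2B, its kinases and related initiation passed (0 by limma, 1 higher and 3 lower at an unadjusted p under 0.05). In the series matrix EIF2B1, a subunit of eIF2B singled out after its values were seen, gave -0.52 and passed (adjusted p = 0.0168), where the intensity table gave -0.17 (adjusted p = 0.356). The smallest p in the intensity table belonged to the eIF2 kinases EIF2AK1, with -0.29 ± 0.10 (adjusted p = 0.0953), and EIF2AK3, with 0.49 ± 0.18 (adjusted p = 0.0972). The kinase EIF2AK2, singled out after its values were seen, read 10.98, 10.75 and 8.71 on DMSO replicates 1 to 3 and 9.24, 8.97 and 9.43 with TIC10. Of 10 other elongation, hypusine, termination and recycling genes, PELO, a ribosome rescue factor, rose by 0.44 ± 0.10 (adjusted p = 0.0201). EIF5A2, the paralogue of EIF5A, fell by 0.51 (adjusted p = 0.0137), as EIF5A did. PELO and EIF5A2 are each 10.0% of that list, beside 10.4% of all genes higher and 13.4% lower. Of 8 mitochondrial translation factors tested, the initiation factors MTIF2 and MTIF3 rose by 0.70 ± 0.09 (adjusted p = 0.00238) and 0.65 ± 0.15 (adjusted p = 0.0206). The elongation factor TSFM fell by 0.42 (adjusted p = 0.043). These are 2 higher and 1 lower of 8, beside the same 10.4% and 13.4% of all genes. In the series matrix PELO gave 0.07 and EIF5A2 -0.38 (adjusted p = 0.804 and 0.107). MTIF2, MTIF3 and TSFM gave 0.15, 0.18 and 0.05 there (adjusted p = 0.565, 0.504 and 0.912). None of these genes passed in the series matrix, and TSFM had the opposite sign.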

How the data were processed

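The authors deposited a table of bead intensities for 47319 probes that they describe as not normalized, with no detection p-values, and a series matrix of log values centred per probe, taken here as log2. Per the labels' protocols, the arrays were Illumina bead arrays read with biotin-labelled cRNA. Not given in the sources used here: background subtraction by the scanner, and the log base, scaling and reference for centring of the matrix. Columns called Control were matched to the DMSO replicates by number. Within groups the replicate numbers of the tables did not match: TIC10 replicate 2 correlated at -0.55 with the matrix column of its number (deviations from the group mean over 14534 genes).

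The intensities were corrected for background by normexp (saddle, offset 50), quantile normalized and put on the log2 scale with limma 3.58.1 under R 4.3.3. Probes above percentile 40 of their array on at least 3 arrays were kept (29440), and the brightest kept probe with 1 gene symbol represented each gene. Symbols were updated through RefSeq. TIC10 was compared with DMSO with limma's moderated two-sided test (lmFit, eBayes), and p-values were adjusted by Benjamini-Hochberg over all 14534 genes, with a threshold of 0.05. An exact permutation test of 3 arrays against 3 cannot go below p = 0.1. Alternatives were no background correction (offset 16), arrays scaled to one median, cyclic loess, the series matrix, no filter, a stricter filter (percentile 60 on all 6 arrays), averaging the probes of each gene, robust eBayes with a trend on intensity, a block for replicate number, and each array left out in turn. The members and lists were chosen with earlier results of these data known. Values on each array are given for every called member and, in each group, for the member with the brightest probe, the largest change that did not pass, and EIF2S2, EIF4E, EIF4G1, EEF1A1, EEF2 and EIF5A. From each further list up to 4 called genes with the largest change are named, or the 2 with the smallest p.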

Additional observations from a re-analysis of the deposited data

How the results depend on the processing

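The counts of 11 members higher and 5 lower stayed within 1.5 times under no background correction, cyclic loess, no filter, the stricter filter, the mean of probes and the trend with robust eBayes. With arrays scaled to one median they were 1 and 3, and in the series matrix 2 and 0. With the replicate block 9 were higher and 3 lower. The replicate numbers are not known to pair the arrays, since same-numbered deviations correlated at -0.15, 0.16 and -0.01. Leaving out each array gave 7 to 20 higher and 2 to 6 lower. Over all genes, the counts of 1513 higher and 1944 lower became 315 and 1996 with one median, 535 and 439 in the series matrix, 2381 and 2788 without DMSO replicate 3, 891 and 1171 without TIC10 replicate 1 and 935 and 1211 without TIC10 replicate 3.

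Group medians on the log2 scale moved as follows. With arrays scaled to one median, that of the start-site factors turned to -0.32, and those of eIF3, eIF4 and EIF5A with ETF1 were 0.044, -0.49 and -0.56, where the median of all genes was -0.15. In the series matrix eIF3, eIF4 and the elongation group gave 0.15, -0.037 and 0.10. Cyclic loess gave 0.48 for the elongation group, and the mean of probes 0.044 for the start-site factors and -0.19 for eIF4. Leaving out each array gave 0.12 to 0.29 for the start-site factors, 0.26 to 0.45 for eIF3, -0.36 to -0.14 for eIF4, 0.19 to 0.36 for the elongation group and -0.33 to 0.10 for EIF5A with ETF1. Among single members, the series matrix reversed EIF2S2 (0.49) and EIF3E (-0.11). Of 585 member values over 15 alternatives, 66 lost a call, 15 gained one and 502 stayed on the same side of the threshold, 27 of those with another sign. The cause of these shifts was not tested. All 39 members lay above percentile 72.0 of every array in intensity.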
